A study of Mus musculus with 6 samples.

Results

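The genes described here are those of mitosis, the spindle and the kinetochore in the ventricles of mice that overexpress COUP-TFII. They were chosen by symbol from textbook roles, with earlier results of these data known. Of 46 in all, 45 were measured among the 18193 genes of the arrays. The one not analysed here is *Ccnb1*. Members took a value from the mean of all probe sets that name only that gene, 106 probe sets in all, with 1 probe set for 13 members and up to 5 for the other 32.

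Whole ventricles of 3 CTRL and 3 OE mice were profiled on 6 Affymetrix mouse genome 430 2.0 arrays. CTRL mice carried Myh6-MCM, the MerCreMer recombinase under the *Myh6* promoter, which is active in cardiomyocytes and needs tamoxifen to reach the nucleus. OE mice carried Myh6-MCM together with CAG-S-COUP-TFII, an allele from which Cre releases COUP-TFII expression. Both groups were of a 129SvEv/C57Bl6/J mixed strain, tamoxifen was given to every animal on 3 days from 2 months of age (40 mg per kg daily), and tissue was taken on day 16 counted from the first dose, at a labelled age of 2.5 months. Cre was thus placed in cardiomyocytes only, but the RNA came from every cell of the ventricle, so more dividing cells and more mitotic RNA per cell cannot be told apart here, nor can the cell type that holds the RNA be read from these arrays.

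In mitosis, CDK1 bound to a cyclin drives the condensation of chromosomes and the building of the spindle. Kinetochores then join each chromosome to microtubules, and the spindle checkpoint holds back the anaphase-promoting complex until all are attached. Cytokinesis closes the cycle at the spindle midzone. Transcription of most of these genes is confined to late cell cycle phases, held off in resting cells by the DREAM complex, which binds a promoter element called the cell cycle genes homology region (CHR), and promoted by B-MYB and FOXM1 with NF-Y, which binds CCAAT boxes. Adult cardiomyocytes have mostly left the cell cycle, whereas fibroblasts, endothelial cells and macrophages of the heart can re-enter it.

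Each deposited value is relative to the median of that probe set over the 6 arrays, so a value above 0 lies above that median and says nothing of the level of expression. Values were taken as log2. For a gene with 1 probe set whose groups do not overlap, the highest value of the lower group and the lowest of the higher group are the same distance from 0, which is a consequence of this centring. Array medians over all genes ran from −0.0091 to 0.012, and pairs of arrays from different groups were further apart (root mean square 0.375 to 0.427) than pairs of CTRL arrays (0.208 to 0.233) or of OE arrays (0.194 to 0.215). The targeted gene, *Nr2f2*, was higher in OE at 1 of its 6 probe sets, with 11.2 times the CTRL value (log2 3.49, adjusted p = 2.57e-05 from limma over probe sets), and no call was made at the other five (log2 −0.34 to −0.13). Differences below are OE minus CTRL, tested with limma over all genes with Benjamini-Hochberg adjustment, and a gene is called at an adjusted p under 0.05. SE is the moderated standard error of a log2 difference.

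Promoters of the members that the results turn on are shown first, to let the elements named above be seen. They are RefSeq windows of 300 bases on GRCm38.p6, from 250 bases before the transcription start to 50 after it, printed 5′ to 3′ along the gene. Capitals mark the CHR, searched as TTTGAA and as TTCAAA for the other strand, and the NF-Y box, searched as CCAAT and as ATTGG. The first 3 rose in OE and hold both sets of letters. *Cks2* had the largest rise and does not hold the CHR letters, and *Cenpf* is the only member called lower and holds both.
Cks1b, chr3:89418242-89418541, minus strand: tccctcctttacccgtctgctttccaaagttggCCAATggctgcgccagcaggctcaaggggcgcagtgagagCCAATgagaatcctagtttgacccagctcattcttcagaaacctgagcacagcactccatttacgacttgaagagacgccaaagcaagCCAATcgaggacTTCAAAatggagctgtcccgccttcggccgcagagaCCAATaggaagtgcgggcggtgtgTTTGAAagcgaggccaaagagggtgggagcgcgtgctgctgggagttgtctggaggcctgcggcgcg
Cdk1, chr10:69352863-69353162, minus strand: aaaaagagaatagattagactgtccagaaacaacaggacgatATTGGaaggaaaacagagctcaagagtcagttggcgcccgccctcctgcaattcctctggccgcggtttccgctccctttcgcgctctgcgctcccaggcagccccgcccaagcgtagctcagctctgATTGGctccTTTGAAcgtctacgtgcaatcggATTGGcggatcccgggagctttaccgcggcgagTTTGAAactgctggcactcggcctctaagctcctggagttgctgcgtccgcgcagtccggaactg
Ccnb2, chr9:70421505-70421804, minus strand: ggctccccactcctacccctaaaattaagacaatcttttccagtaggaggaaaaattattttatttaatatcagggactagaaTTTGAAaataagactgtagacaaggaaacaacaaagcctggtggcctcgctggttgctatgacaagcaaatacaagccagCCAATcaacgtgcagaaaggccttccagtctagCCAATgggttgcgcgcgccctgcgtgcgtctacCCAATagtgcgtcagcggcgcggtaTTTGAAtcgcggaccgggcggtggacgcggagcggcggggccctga
Cks2, chr13:51644982-51645281, plus strand: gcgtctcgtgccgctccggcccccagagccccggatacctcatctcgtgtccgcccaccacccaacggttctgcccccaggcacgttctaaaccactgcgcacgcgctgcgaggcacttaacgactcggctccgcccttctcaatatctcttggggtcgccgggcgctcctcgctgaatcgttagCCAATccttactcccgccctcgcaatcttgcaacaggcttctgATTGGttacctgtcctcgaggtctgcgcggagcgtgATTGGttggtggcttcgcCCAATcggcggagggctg
Cenpf, chr1:189688037-189688336, minus strand: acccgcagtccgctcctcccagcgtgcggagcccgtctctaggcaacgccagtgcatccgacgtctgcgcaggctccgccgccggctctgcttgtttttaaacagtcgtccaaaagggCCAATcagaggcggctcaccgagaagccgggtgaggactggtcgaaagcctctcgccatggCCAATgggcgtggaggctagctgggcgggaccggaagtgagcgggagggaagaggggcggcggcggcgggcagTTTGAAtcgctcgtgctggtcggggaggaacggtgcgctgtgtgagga

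Windows were found for 39 of the 46 members, 41 windows in all because *Ect2* and *Prc1* have 2 each. The CHR letters were in 30 of the 41 (73.2%), against 17.9% of all 32851 promoter windows and 13.4% of the windows of measured genes. NF-Y boxes were in 32 (78%), against 37.4% of all windows. Both were in 27 (65.9%), against 6.95%, and neither was in 6, which were those of *Birc5*, *Mad2l1*, *Melk*, *Nuf2*, *Nusap1* and *Pttg1*. In the printed windows *Cks1b* has CHR letters at −77 and −17 relative to the start, *Cdk1* at −71 and −15, and *Ccnb2* at −167 and 5. The CHR and CCAAT letters overlap at 1 place in the members' windows. A match of letters is a description of the window and not evidence of binding. Only the exact letters were searched, so a window without them may still hold a variant of the element.

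**Figure D1:**
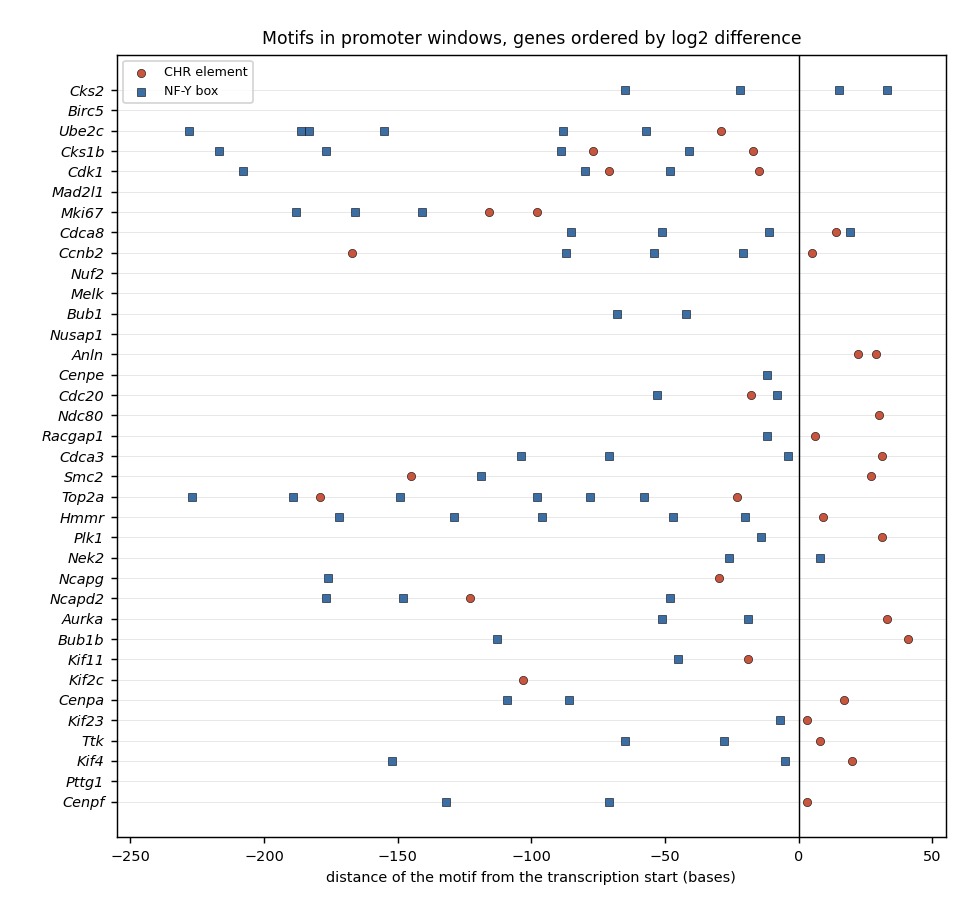
Distance in bases of CHR elements (red circles) and NF-Y boxes (blue squares) from the transcription start (vertical line) in the promoter windows of measured members that have 1 window each, one gene per line, ordered by log2 difference with the highest at the top. Rows without a mark hold neither set of searched letters, and *Birc5* and *Mad2l1*, both called higher, are among them.

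Calls were also counted by element. Of the 28 measured members with the CHR letters in the window, 11 were called higher in OE and the median log2 difference was 0.29 (range −0.45 to 1.46). Of the 10 without these exact letters, 8 were called higher and the median was 0.59 (range −0.11 to 2.15). With an NF-Y box the count was 14 of 29 with a median of 0.30, and without one 5 of 9 with a median of 0.49. Over all genes, 14.9% were called higher and the median was −0.03. These counts describe small groups and were not tested.

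Of the 45 members, 22 were higher in OE, 1 was lower and 22 did not pass the test. Called higher were thus 48.9% of members, while 14.9% of all genes were called higher and 11.8% lower. Because members were chosen with earlier results of these data known, the gap between these shares is a description and not independent support. The median log2 difference of the members was 0.33, a ratio of 1.25, beside −0.03 over all genes. In 32 members every OE array lay above every CTRL array, which held for 22.0% of all genes, and in 1 member every OE array lay below, which held for 23.6% of all genes. Differences over 2-fold were found for 7 members, namely *Cks2*, *Birc5*, *Ube2c*, *Cks1b*, *Kif20a*, *Cdk1* and *Mad2l1*. The 22 members without a call had log2 differences of −0.11 to 0.93, and 18 of them were above 0. Of these 18, 11 lay below 0 with arrays centred on ribosomal protein genes. That centring shifts every gene by −0.22 and puts the median of all genes at −0.25, so the change of sign does not set these 11 apart.

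The test decided much of this count. With one-way analysis of variance, which estimates each gene's variance from its own 6 values, 6 members were called higher (7.9% of all genes), and *Cks1b*, *Cks2*, *Ube2c*, *Cdk1*, *Mad2l1* and *Cdca8* were those 6. Of 43 ribosomal protein genes, 16 were called higher with a median of 0.21, and centring the arrays on this list shifted every log2 difference by −0.22 and with them the median of all genes, from −0.03 to −0.25. On that scale 16 members were called higher (7.2% of all genes) and 2 lower, *Cenpf* and *Foxm1* (50.7% of all genes), and the members' median was 0.11. The 6 that were no longer called higher were *Nuf2*, *Nusap1*, *Hmmr*, *Top2a*, *Smc2* and *Cdca3*.

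**Figure D2:**
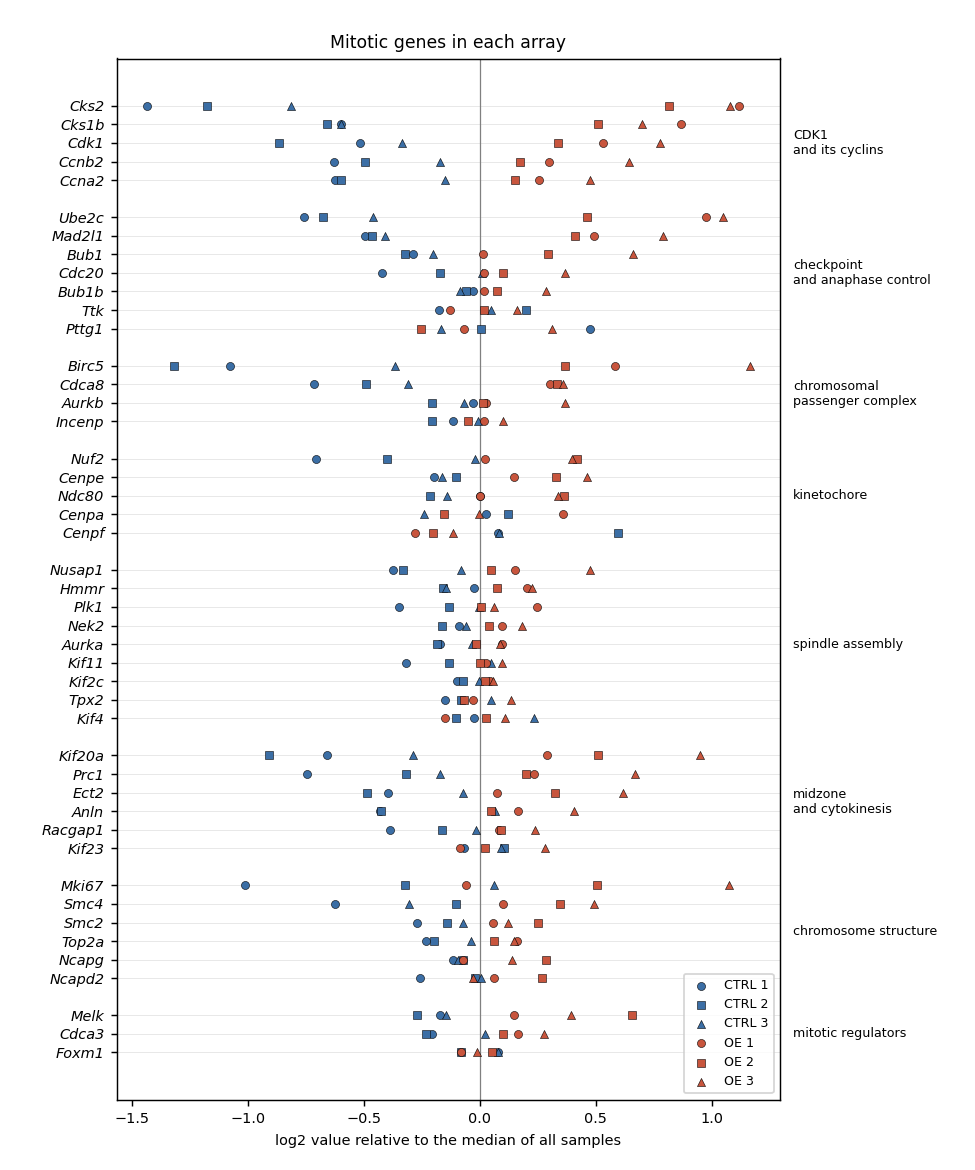
Log2 value, centred on the median of all samples, of each of the 45 members (lines, grouped by role) in each of the 6 arrays. Blue marks are CTRL and red marks OE, and circles, squares and triangles are replicates 1, 2 and 3. In the group of CDK1 and its cyclins all red marks lie to the right of all blue ones, whereas the marks of several spindle genes overlap.

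All 5 measured genes of CDK1, its cyclins and its small subunits were higher in OE, with a median log2 difference of 1.12. *Cks2* encodes a small subunit that binds CDK1 and stays close to its phosphorylated substrates. Its values were −1.44, −1.18 and −0.82 in CTRL 1, 2 and 3 and 1.12, 0.82 and 1.08 in OE 1, 2 and 3. The groups were far apart even at their nearest arrays, CTRL 3 and OE 2, and the difference was the largest of all members (4.43-fold, log2 2.15, SE 0.16, adjusted p = 0.000244). *Cks1b*, its paralogue, which also serves the SCF ubiquitin ligase that degrades p27, stood at −0.60, −0.66 and −0.60 in the CTRL arrays and at 0.87, 0.51 and 0.70 in the OE arrays. CTRL arrays were close to each other and far below OE (2.48-fold, log2 1.31, SE 0.10, adjusted p = 0.000239). *Cdk1*, the mitotic kinase itself, had −0.52, −0.87 and −0.34 in CTRL and 0.53, 0.34 and 0.78 in OE. CTRL 2 was the lowest array and OE 3 the highest, without overlap (2.18-fold, log2 1.12). The mitotic cyclin gene *Ccnb2* was −0.63, −0.50 and −0.17 in CTRL against 0.30, 0.17 and 0.64 in OE, and *Ccna2*, the cyclin of S phase and early mitosis, was −0.63, −0.60 and −0.15 against 0.25, 0.15 and 0.48. In both, CTRL 3 lay nearest to OE and OE 3 was highest (log2 0.80 and 0.75). *Cdk1*, *Cks1b* and *Cks2*, with *Ube2c* and *Mad2l1* of the next group, were called in all 13 other settings of the test, and *Ccnb2* and *Ccna2* in all but one-way analysis of variance.

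Among 7 genes of the checkpoint and of anaphase control, 3 were higher and 4 not called. *Ube2c*, the ubiquitin-conjugating enzyme of the anaphase-promoting complex, was at −0.76, −0.68 and −0.46 in CTRL 1, 2 and 3 and at 0.98, 0.46 and 1.05 in OE 1, 2 and 3. OE 2 was lower than the other OE arrays and still far above every CTRL array (2.75-fold, log2 1.46, SE 0.16, adjusted p = 0.000902). *Mad2l1* encodes MAD2, the checkpoint protein that captures CDC20, and had values of −0.50, −0.47 and −0.41 in CTRL and 0.49, 0.41 and 0.79 in OE. The CTRL arrays were close together and the groups did not overlap (2.03-fold, log2 1.02, SE 0.10, adjusted p = 0.000748). *Bub1*, a checkpoint kinase of the kinetochore, was −0.29, −0.32 and −0.20 in CTRL and 0.015, 0.29 and 0.66 in OE. Its OE arrays spread widely, with OE 1 near 0 (log2 0.59, adjusted p = 0.0232), and the call was lost without CTRL 1, CTRL 2 or OE 2. *Cdc20*, the activator of the anaphase-promoting complex that the checkpoint restrains, had a log2 difference of 0.36 (95% interval 0.051 to 0.66, adjusted p = 0.0824), and *Bub1b*, which encodes the checkpoint protein BUBR1, one of 0.18 (adjusted p = 0.144). Neither was called, although all OE arrays lay above all CTRL arrays in both, as in 22.0% of all genes. *Ttk*, the checkpoint kinase MPS1, differed by −0.0078 (−0.27 to 0.26) and *Pttg1*, which encodes securin, the inhibitor of separase, by −0.11 (−0.55 to 0.34). Their groups overlapped, and *Pttg1* was highest in CTRL 1 at 0.47.

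The chromosomal passenger complex corrects faulty attachments and later acts at the midzone, and 2 of its 4 genes were higher. *Birc5*, which encodes survivin, was −1.08, −1.32 and −0.37 in CTRL 1, 2 and 3 and 0.58, 0.37 and 1.16 in OE 1, 2 and 3. Both groups spread widely, with CTRL 3 the highest CTRL array and OE 3 the highest OE array, and they did not overlap (3.09-fold, log2 1.63, SE 0.27, adjusted p = 0.00518). *Cdca8*, which encodes borealin, had −0.72, −0.49 and −0.31 in CTRL and 0.30, 0.33 and 0.36 in OE. OE arrays were close to each other and above all CTRL arrays (1.79-fold, log2 0.84, SE 0.10, adjusted p = 0.00144), and the call was lost with _x_at and _s_at probe sets left out, which can share sequence with other transcripts. The kinase gene *Aurkb* (log2 0.24, 95% interval −0.017 to 0.49) and *Incenp*, the scaffold of the complex (log2 0.13, −0.052 to 0.31), did not pass the test.

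Of 5 kinetochore genes, 2 were higher and 1 lower. *Nuf2* and *Ndc80* encode partners in the NDC80 complex, which grips microtubules. *Nuf2* stood at −0.71, −0.40 and −0.021 in CTRL and 0.021, 0.42 and 0.40 in OE. CTRL 3 and OE 1 nearly met at 0 (1.58-fold, log2 0.66, SE 0.18, adjusted p = 0.0318), and the call was lost without CTRL 1, CTRL 2, OE 2 or OE 3. *Ndc80* was −0.0018, −0.22 and −0.14 in CTRL and 0.0018, 0.36 and 0.34 in OE, where CTRL 1 and OE 1 nearly met, and was not called (log2 0.35, adjusted p = 0.0512). *Cenpe*, the kinesin that carries chromosomes to the spindle equator, had −0.20, −0.10 and −0.16 in CTRL and 0.15, 0.33 and 0.46 in OE without overlap (1.38-fold, log2 0.47, SE 0.09, adjusted p = 0.00879). *Cenpa*, the histone H3 variant that marks centromeres, overlapped between the groups (log2 0.10, 95% interval −0.24 to 0.44).

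*Cenpf*, a large protein of the outer kinetochore and the nuclear envelope in G2, went the other way. Its values were 0.077, 0.60 and 0.083 in CTRL 1, 2 and 3 and −0.28, −0.20 and −0.12 in OE 1, 2 and 3. All OE arrays lay below all CTRL arrays and CTRL 2 stood apart from the other CTRL arrays (1.37-fold lower, log2 −0.45, SE 0.14, adjusted p = 0.0495). Its 3 probe sets differed by −0.97, −0.31 and −0.08, and in the first of these CTRL 2 was at 1.52 with CTRL 1 and CTRL 3 at 0.19 and 0.032. The second, with CTRL arrays between 0.12 and 0.14, was the one called lower (adjusted p = 0.0216 over probe sets). The call on the mean held with CTRL 3 left out but with no other omission (adjusted p between 0.0528 and 0.139), and without CTRL 2 the log2 difference was −0.28.

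Spindle assembly held 9 genes and the smallest median, 0.19, with 2 called higher (22.2%, beside 14.9% of all genes). With ribosomal centring the median was −0.030 and none was called by limma (0 of 9). The median of all genes was −0.25 on that scale, and 7.2% of all genes were called higher. *Nusap1*, which bundles microtubules near chromosomes, was −0.38, −0.33 and −0.083 in CTRL and 0.15, 0.049 and 0.47 in OE, with OE 3 well above the other OE arrays (1.4-fold, log2 0.49, SE 0.13, adjusted p = 0.0268). *Hmmr*, a spindle protein that is also a receptor for hyaluronan, was −0.027, −0.16 and −0.15 in CTRL and 0.20, 0.072 and 0.22 in OE (1.21-fold, log2 0.28, SE 0.075, adjusted p = 0.0306). Groups did not overlap in either gene, and both calls were lost without CTRL 2, OE 1 or OE 3, that of *Nusap1* also without CTRL 1 and that of *Hmmr* also without CTRL 3 and with _x_at and _s_at probe sets left out. The kinase genes *Plk1* (log2 0.27), *Nek2* (log2 0.21) and *Aurka* (log2 0.19), which act at the centrosome and spindle poles, were not called (adjusted p = 0.106, 0.0599 and 0.0984). Nor was *Kif2c*, a microtubule depolymerase (log2 0.10). In all 4, OE arrays lay above CTRL arrays, which held for 22.0% of all genes. Overlap was found in *Kif11*, the motor that separates the poles (log2 0.17, 95% interval −0.054 to 0.40), in *Tpx2*, an activator of Aurora A (log2 0.073), and in the chromokinesin gene *Kif4* (log2 −0.04, 95% interval −0.29 to 0.21).

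Genes of the midzone and cytokinesis had a median of 0.56, and 3 of the 6 were higher. *Kif20a*, a kinesin of the midzone, was at −0.66, −0.91 and −0.29 in CTRL 1, 2 and 3 and at 0.29, 0.51 and 0.95 in OE 1, 2 and 3. OE 3 was again highest and CTRL 3 nearest to OE (2.3-fold, log2 1.2, SE 0.20, adjusted p = 0.00482). *Prc1*, the bundler of antiparallel microtubules, had −0.75, −0.32 and −0.17 in CTRL and 0.23, 0.20 and 0.67 in OE. The groups were separate, with CTRL 1 well below the other CTRL arrays (1.72-fold, log2 0.78, SE 0.17, adjusted p = 0.0153). *Ect2*, which activates RhoA at the cleavage site, stood at −0.40, −0.49 and −0.073 in CTRL and 0.073, 0.32 and 0.62 in OE (log2 0.66, adjusted p = 0.0191), and its call was lost without CTRL 1, CTRL 2 or OE 2. *Anln*, which encodes the contractile ring protein anillin, and *Racgap1*, a partner of *Kif23* in the centralspindlin complex, fell just short (log2 0.47 and 0.33, adjusted p = 0.0563 and 0.0528). *Kif23* itself overlapped (log2 0.03, 95% interval −0.22 to 0.28).

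Chromosome structure held 6 genes, of which 3 were higher. *Smc4* and *Smc2* encode the ATPase pair of condensin. *Smc4* was −0.63, −0.10 and −0.31 in CTRL and 0.10, 0.35 and 0.49 in OE (1.58-fold, log2 0.66, SE 0.15, adjusted p = 0.0161), and *Smc2* was −0.27, −0.14 and −0.074 in CTRL and 0.055, 0.25 and 0.12 in OE (1.23-fold, log2 0.30, SE 0.083, adjusted p = 0.0318). Groups were separate in both, CTRL 1 was the lowest array in both, and the call was lost for *Smc4* without OE 3 and for *Smc2* without CTRL 1, CTRL 2, OE 2 or OE 3. The other condensin genes here, *Ncapg* and *Ncapd2*, were not called (log2 0.21 and 0.19). *Top2a*, the topoisomerase that untangles sister chromatids, was −0.23, −0.20 and −0.04 in CTRL and 0.16, 0.061 and 0.15 in OE (log2 0.28, adjusted p = 0.032), and its call was kept among the 6 omissions only without CTRL 3, and was lost with ribosomal centring (log2 0.062, adjusted p = 0.518). *Mki67*, whose protein coats mitotic chromosomes and is the usual label of cycling cells, was at −1.02, −0.32 and 0.06 in CTRL and −0.06, 0.51 and 1.07 in OE. Arrays of both groups spread widely (SD 0.55 in CTRL and 0.57 in OE, n = 3), CTRL 3 lay above OE 1, and the 1.91-fold difference did not pass the test (log2 0.93, 95% interval 0.17 to 1.70, adjusted p = 0.0732). It passed without CTRL 3 (adjusted p = 0.042) and without OE 1 (0.0441).

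Of the mitotic regulators *Melk*, a kinase gene transcribed in late cell cycle phases, was −0.17, −0.27 and −0.15 in CTRL and 0.15, 0.66 and 0.39 in OE (1.51-fold, log2 0.60, SE 0.12, adjusted p = 0.0117). *Cdca3*, which takes part in entry into mitosis, was −0.21, −0.23 and 0.022 in CTRL and 0.17, 0.10 and 0.28 in OE (1.25-fold, log2 0.32, SE 0.091, adjusted p = 0.0361), a call kept among the omissions only without CTRL 3. Neither gene had overlapping groups. *Foxm1*, the activator of many genes described above, was 0.08, −0.084 and 0.077 in CTRL and −0.081, 0.052 and −0.012 in OE, overlapping, with a log2 difference of −0.038 (95% interval −0.21 to 0.14). With arrays centred on ribosomal protein genes it was called lower (log2 −0.25, adjusted p = 0.0246 from limma). On that scale 50.7% of all genes were called lower and their median was also −0.25, so the call does not set *Foxm1* apart.

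**Figure D3:**
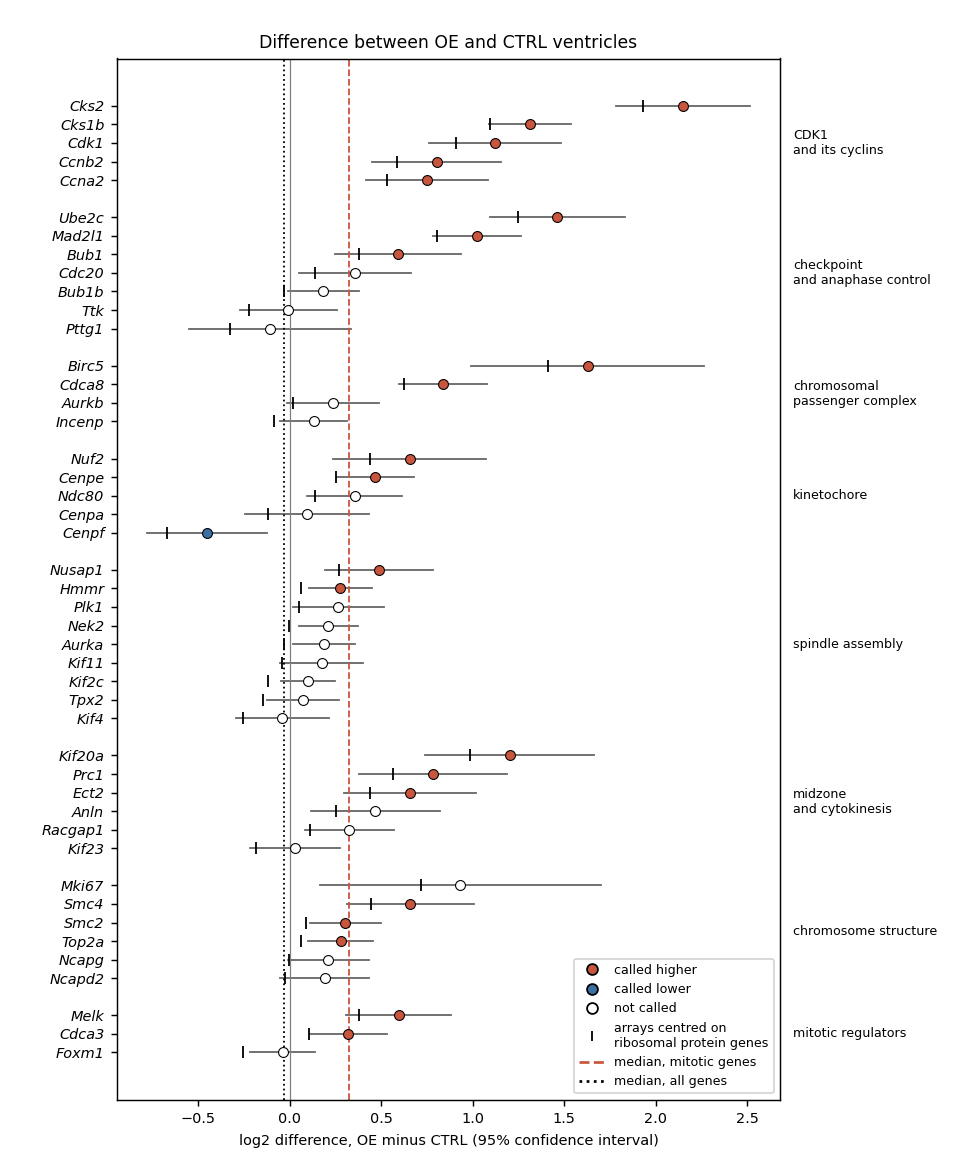
Log2 difference between OE and CTRL for each member by role, as a point with its 95% confidence interval from limma (filled red where called higher, blue where called lower, open where not called). Short vertical ticks give the difference after ribosomal centring, and the dashed and dotted lines are the medians of the members (0.33) and of all genes (−0.03). *Cks2*, *Birc5*, *Ube2c* and *Cks1b* stand furthest to the right and *Cenpf* is the one filled point left of 0.

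Probe sets of the same gene often disagreed, so the mean per gene hides part of the data. Of the 106 probe sets, 42 were called higher (39.6%) and 2 lower, beside 13.9% higher and 10.4% lower among the 34945 probe sets of all genes. At least 1 probe set was called higher in 33 members, as in 19.7% of all genes. Among the 32 members with several, all were called higher in 5, some in 19 and none in 8. Of the 23 members not called higher on the mean, 11 had a probe set called higher. For *Anln* that probe set differed by 1.13 and the other by −0.19, for *Nek2* the 4 differed by 0.96, 0.097, 0.072 and −0.28, and for *Cdc20* the 3 differed by 0.91, 0.29 and −0.13. *Incenp* (0.77), *Racgap1* (0.70), *Aurka* (0.58), *Bub1b* (0.55), *Kif2c* (0.51), *Tpx2* (0.45), *Ncapg* (0.45) and *Kif11* (0.33) each had one as well. The matching share among all genes not called higher on the mean was not counted. More probe sets per gene also give more chances of a called one, so these 11 are only described. *Top2a* had a probe set called in each direction (0.91 and −0.34), and *Bub1* had one at 1.2 and one at −0.015. Other members called higher also rested on 1 called probe set. Those of *Nusap1* differed by 1.10 and −0.12, and those of *Cdca3* by 1.27, −0.072 and −0.23. *Smc2* had the called one at 0.83 and the others between 0.017 and 0.30. With the probe set of largest variance standing for each gene, 31 members were called higher (18.4% of all genes) and their median was 0.70. That choice uses the spread between the groups, so these 2 values are no independent support. Which transcripts the single probe sets detect was not tested.

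**Figure D4:**
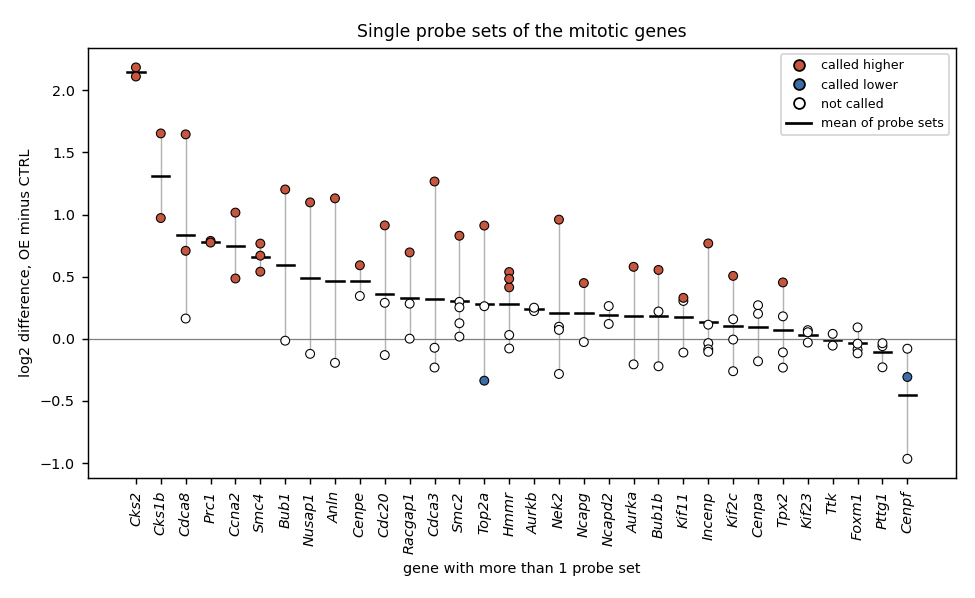
Log2 difference between OE and CTRL at every probe set of the 32 members with more than 1, ordered by the mean of the gene (black bar). Red points were called higher, blue lower and open points not called, over all probe sets. The probe sets of *Cks2* and *Prc1* lie together, while those of *Cdca8*, *Cdca3* and *Anln* are spread widely.

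Within a group the members were often highest in the same mouse. CTRL 3 was the highest CTRL array in 32 of 45 members and OE 3 the highest OE array in 32, while over all genes these arrays were highest in 33.4% and 34.6%. The mean over members was −0.34, −0.28 and −0.12 in CTRL 1, 2 and 3 and 0.17, 0.19 and 0.39 in OE 1, 2 and 3. Of the 22 members called higher, 13 stayed called on leaving out each array in turn, and leaving out CTRL 2 brought the number called higher to 14 (10.9% of all genes), the lowest of the 6 omissions, while leaving out CTRL 3 gave 25 (13.0% of all genes).

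Related genes outside the 46 were taken from lists by role, none of which shares a gene with the members. These lists, too, were chosen with earlier results of these data known, so their counts are descriptions. For comparison, 14.9% of all genes were called higher and 11.8% lower. With ribosomal centring these shares were 7.2% and 50.7%, and the median of all genes was −0.25. Of 36 other kinetochore genes measured, 18 were higher, 1 was lower and the median was 0.27, and with ribosomal centring 11 were higher, 7 lower and the median 0.055. *Zwilch*, of the complex that recruits dynein to kinetochores, was −0.98, −1.33 and −0.63 in CTRL and 0.92, 0.63 and 0.86 in OE without overlap (3.45-fold, log2 1.79, SE 0.17, adjusted p = 0.000546). *Zwint* (log2 0.87), which joins that complex to the kinetochore, and *Cenpi* (log2 0.82), of the inner kinetochore, were higher too, while *Sgo2a*, a protector of cohesin at centromeres, was lower (log2 −0.53, adjusted p = 0.0222). Of 34 other spindle and cytokinesis genes, 10 were higher and 2 lower (median 0.17, and 6, 12 and −0.047 with ribosomal centring), the higher ones including the kinase gene *Pbk* (log2 1.19), *Depdc1a* (log2 0.96) and *Cep55* (log2 0.83), which serves the final cut between daughter cells. The anaphase-promoting complex, which *Ube2c* and *Cdc20* serve, had 5 of 17 genes higher (median 0.16, and 1 of 17 with a median of −0.058 after ribosomal centring), led by *Anapc15* (log2 0.56). Cohesin and the other condensin genes had 1 of 13 higher, *Ncapg2* (log2 0.59), and a median of −0.06, and with ribosomal centring 10 were lower, 1 was higher and the median was −0.28.

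Genes that regulate the members were counted in the same way. Over all genes, 14.9% were called higher and 11.8% lower. With ribosomal centring the shares of all genes were 7.2% and 50.7%, and their median was −0.25. Of 19 genes of DREAM, MuvB and the E2F family, 3 were higher (*Lin54*, *Tfdp1* and *Rbbp4*, each with a log2 difference of 0.29) and 1 lower, *Lin52* (log2 −0.54), around a median of 0.0087 (−0.21 with ribosomal centring, where 0 were higher and 9 lower by limma). *Mybl2*, which encodes B-MYB, differed by 0.0087 (95% interval −0.15 to 0.17). None of the 10 genes that switch CDK1 on or off at mitotic entry was called by limma (0 at an unadjusted p under 0.05, the lowest being 0.0512 for *Wee1*) or by one-way analysis of variance (0), and with ribosomal centring 2 were lower and the median was −0.13. Of 14 CDK inhibitors and arrest genes, 4 were higher and 3 lower (3 and 6 with ribosomal centring), and *Gadd45g* (log2 1.23) and *Btg2* (log2 1.21) were higher and *Gadd45a*, a growth arrest gene induced by DNA damage, was lower (2.4-fold, log2 −1.26, SE 0.10, adjusted p = 0.000267). Of 49 replication genes, 24 were higher and 1 lower, with a median of 0.30 (17, 9 and 0.085 with ribosomal centring). Among them were *Rrm2*, a subunit of ribonucleotide reductase (log2 1.35), *Rfc5*, of the clamp loader (log2 1.09), and the cyclin gene *Ccnd2* (log2 1.07). Over these 8 cell cycle lists, 65 of 192 measured genes were higher and 8 lower. With one-way analysis of variance 32 were higher and 3 lower (7.9% and 6.18% of all genes). With ribosomal centring 39 were higher and 57 lower (7.2% and 50.7% of all genes).

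Markers of cell types moved with the groups as well. Among cardiomyocyte markers 10 of 15 were lower and 2 higher, with list means of 0.16 to 0.24 in CTRL and −0.25 to −0.21 in OE. Fibroblast markers were higher in 6 of 12 and lower in 2, with list means of −0.59 to −0.19 in CTRL and 0.17 to 0.33 in OE. CTRL 3 was the highest CTRL array and OE 3 the highest OE array in this list, as in the mitotic genes. Macrophage markers were higher in 6 of 15, or in 3 with 2 lower after ribosomal centring (−0.29 to −0.082 in CTRL, −0.0053 to 0.34 in OE), with the same arrays highest. Endothelial markers were lower in 7 of 13 (0.13 to 0.39 in CTRL, −0.22 to −0.05 in OE). Smooth muscle and pericyte markers were split, 4 higher and 5 lower of 10. Their median log2 difference was −0.32, opposite in sign to the difference of the list means (−0.27 to 0.044 in CTRL, 0.048 to 0.17 in OE), which hold *Cnn1* at a log2 difference of 4.94, the highest of the list. No marker of T and NK cells (8 measured) or of B cells (6) was called by limma or by one-way analysis of variance, with 2 and 1 at an unadjusted p under 0.05, and 2 of 8 neutrophil and 1 of 6 erythroid markers were lower. With ribosomal centring 4 of 8 T and NK cell, 4 of 6 B cell, 4 of 8 neutrophil, 5 of 6 erythroid, 11 of 13 endothelial and 11 of 15 cardiomyocyte markers were lower. On that scale 50.7% of all genes were called lower and 7.2% higher, so these counts say little of the markers themselves. CTRL 3 was also the highest CTRL array in the endothelial, smooth muscle and pericyte, and T and NK cell lists, where OE 3 was the lowest OE array. OE 3 was also the highest OE array in the neutrophil and B cell lists, where CTRL 3 was not the highest. Since values hold no level, it cannot be said which markers were near background. The part of these cell types in the differences of the mitotic genes was not tested.

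**Figure D5:**
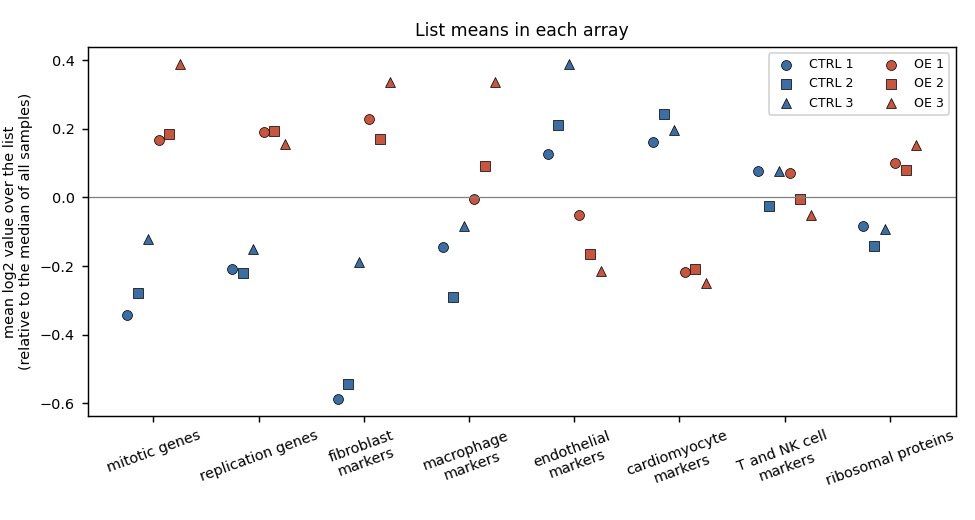
Mean log2 value over the measured genes of each list, relative to the median of all samples, in each of the 6 arrays (blue CTRL, red OE, with circles, squares and triangles for replicates 1, 2 and 3). CTRL 3 and OE 3 are the highest arrays of their groups in the mitotic genes (−0.12 and 0.39) and in the fibroblast and macrophage markers, but OE 3 is not the highest in the replication genes.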

How the data were processed

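RNA of whole ventricles from 3 CTRL and 3 OE mice, grouped by the labels, was measured on 1 array each. In GeneSpring GX the authors ran RMA, of a version not given in the sources used here, with quantile normalization and a baseline set to the median of all samples. The deposited values were taken as log2, since RMA gives these and the base is not stated. Of 45101 probe sets, 34945 name 1 gene in the platform annotation and gave 18193 genes as means of probe sets. Probe sets that name several genes (932) or none here (9224, array controls included) were left out, and 162 old symbols were kept. No filter on level was possible. *Foxm1* has a further probe set that names several genes.

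OE was tested against CTRL in R 4.3.3 by limma 3.58.1 (lmFit, eBayes), two-sided and without covariates, with Benjamini-Hochberg adjustment over all genes or all probe sets, after a check on simulated data. One-way analysis of variance, the test of the methods, was made an alternative, since a variance from so few arrays is unsteady for a single gene. Precision is limited by the 6 arrays, and 3 against 3 in an exact permutation test give a p of 0.1 at best.

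Every measured member was named by role. Full statistics were reserved for the 2 largest called differences of a role and for members against its direction, and up to 3 called genes were named per related list. Members and lists were chosen with earlier results of these data known. Promoter windows came from RefSeq (GRCm38.p6). The alternatives tried were that test, array weights, a replicate block, centring on ribosomal protein genes or on each array's median, probe sets without _x_at and _s_at, the probe set of largest variance, fold limits of 1.2 and 1.5, omission of each array, and any probe set called. Tables and figures were made with pandas 2.3.3, matplotlib 3.10.9 and Python 3.11.15.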

Additional observations from a re-analysis of the deposited data

How the results depend on the processing

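The number of members higher in OE was 22, and from 15 to 33 under the alternatives other than one-way analysis of variance (6) and leaving out CTRL 2 (14). Over the omissions of an array it ran from 14 to 25. The single member called lower was not called with one-way analysis of variance, the replicate block, centring on each array's median, the probe set of largest variance or a limit of 1.5-fold (0 in each), 2 members were called lower with centring on ribosomal protein genes and with any probe set called, and omissions gave 0 to 1. The median log2 difference of members, 0.33, was 0.11 with ribosomal centring and 0.70 with the probe set of largest variance, and 0.29 to 0.40 over omissions. The 65 higher calls in related lists became 32 with one-way analysis of variance and 39 with ribosomal centring (7.9% and 7.2% of all genes). Over omissions they were 47 to 63. Ribosomal centring shifts every log2 difference by −0.22, so the change of the median under it follows from the calculation. The median of all genes moved by the same amount, from −0.03 to −0.25. The cause of the other shifts was not tested.

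Deviations of same-numbered arrays from their group means, over all genes, correlated at 0.0697, −0.117 and 0.0253. Those of differently numbered arrays correlated at −0.113 to 0.0848. The labels do not state what the replicate numbers stand for, and these values cannot decide whether they pair the samples. With the replicate number as a block, 25 members were higher (13.0% of all genes) and 0 lower (9.23% of all genes), and 59 related genes were higher and 8 lower. *Top2a* lost its call (adjusted p = 0.0545), the only one of the 22 to do so under the block.

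Ribosomal centring shifted every log2 difference by −0.22 and the median of all genes to −0.25. Members without a call changed sign, without gaining one, as follows. With ribosomal centring the log2 differences were −0.030 for *Aurka*, −0.033 for *Bub1b*, −0.12 for *Cenpa*, −0.042 for *Kif11*, −0.19 for *Kif23*, −0.12 for *Kif2c*, −0.14 for *Tpx2*, −0.086 for *Incenp*, −0.0058 for *Ncapg*, −0.025 for *Ncapd2* and −0.0057 for *Nek2*. With _x_at and _s_at probe sets left out they were −0.00091 for *Bub1b*, −0.037 for *Kif2c*, −0.028 for *Incenp* and −0.038 for *Nek2*, and *Aurkb* had no value. *Ttk* was 0.0051 with centring on array medians and 0.040 with the probe set of largest variance. On leaving out each array *Ttk* ran from −0.11 to 0.080, *Cenpa* from −0.049 to 0.21, *Kif23* from −0.075 to 0.11, *Kif4* from −0.11 to 0.059 and *Pttg1* from −0.27 to 0.077.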
